A study of Mus musculus with 6 samples.

Results

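Mitochondrial ribosomal protein genes were followed in mouse embryonic stem (ES) cells after transfection of a short hairpin RNA (shRNA) against Chd4, the ATPase of the NuRD chromatin remodelling complex. The genes were taken by name, as every probe whose gene symbol in the platform annotation starts with Mrpl (large subunit series) or Mrps (small subunit series) followed by a number. This gave 132 of the 45281 probes on the array and 76 of the 19057 named genes, 48 with Mrpl names and 28 with Mrps names. Of these 76 genes, 72 had a brightest probe detected on at least 3 of the 6 arrays and were tested. The remaining 4 were Mrpl19, Mrpl32 and Mrps14, whose probes were detected on no array, and Mrpl45, detected on 1 array.

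RNA came from 2 groups of 3 samples each, and every sample was hybridised to an array of its own (Illumina MouseWG-6 BeadChip, 1 colour). The shChd4 cells received a pHYPER plasmid that expresses the shRNA against Chd4. The control cells carry the transfection label "control", and the labels do not describe what that transfection held. Cells of both groups were grown in serum with leukemia inhibitory factor on a layer of mouse embryonic fibroblasts that mitomycin C had stopped from dividing, were electroporated, and were selected with puromycin from 24 h after transfection for 48 h. No cell sort is given, and whether feeder cells were removed before RNA extraction is not stated in the labels. The arrays of each group sat on a BeadChip of their own, and a chip difference cannot be told apart from the shRNA difference. Separate cultures are not named for the 3 samples of a group, and the p-values rest on the spread of these samples alone, which could be technical. Array numbers are names in accession order and pair no samples.

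The mitochondrial ribosome, or mitoribosome, translates the few messenger RNAs encoded by mitochondrial DNA, which specify core subunits of the oxidative phosphorylation complexes. Its ribosomal RNAs are made inside the organelle, while all of its proteins are encoded by nuclear genes and imported after synthesis in the cytosol. Some of these proteins descend from bacterial ribosomal proteins, and others are found in mitochondrial ribosomes and have no bacterial counterpart.

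Levels below are background-corrected, quantile-normalised log2 intensities of the brightest probe of each gene, and a log2 change is the shChd4 mean minus the control mean with its standard error (SE). A gene was called lower or higher at a Benjamini-Hochberg adjusted p under 0.05 from limma, adjusted over all 9808 genes tested. Chd4 itself stood at 8.06, 7.91 and 8.33 on the shChd4 arrays, against 10.13, 10.13 and 10.17 on the control arrays, a log2 change of -2.04 ± 0.16 (limma adjusted p = 6.33e-06) that leaves 24.3% of the control intensity. The labels and the targeted gene therefore point the same way on all 6 arrays. The ES cell markers Pou5f1 (-1.26 ± 0.21, limma adjusted p = 0.00101) and Nanog (-0.84 ± 0.23, 0.0148, or 0.0505 without control array 1 and 0.0575 with no detection filter) were detected on all 6 arrays. Of 15 ES cell markers 8 were lower and 0 higher in shChd4, with a median log2 change of -0.57, or -0.92 with the mean of all detected probes of a gene. Over these 15 genes the mean log2 intensity was 9.69, 10.15 and 9.64 on the shChd4 arrays and 10.63, 10.59 and 10.50 on the control arrays. Fibroblasts are the feeder cell type of these cultures, and of 24 fibroblast markers 20 were tested, of which 16 were higher and 0 lower, with a median log2 change of 2.52. Without background correction this median was 1.37, and with the authors' normalised values 1.47. Their mean log2 intensity was 8.78, 8.55 and 8.80 on the shChd4 arrays and 6.12, 6.54 and 6.62 on the control arrays. Dcn, a matrix proteoglycan, stood at 11.83, 11.22 and 11.90 on the shChd4 arrays and 5.67, 6.87 and 6.24 on the control arrays, and the collagen gene Col1a1 was at least 4.39-fold higher in shChd4 and not detected in control cells. In all, 4 of the 20 tested fibroblast markers were detected on no control array. In bulk RNA of this kind, fewer cells of a type and less RNA per cell cannot be told apart. The part of the marker shifts in the values that follow was not tested.

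Mitochondrial ribosomal protein transcripts were lower or did not pass the test, and none was called higher. Of the 72 genes tested, 24 (33.3%) were lower in shChd4 cells, where 18.2% of all genes tested were lower. None of the 72 was higher at the adjusted threshold in limma or at an unadjusted p under 0.05, where 19.9% of all genes tested were called higher, and 33 were lower at that unadjusted p. The log2 change was below 0 for 60 of 72 genes (83.3%), against 53.8% of all genes tested. All 3 shChd4 arrays lay below all 3 control arrays for 37 of the 72 genes (51.4%), against 25.3% of all genes tested, and above them for 0, against 25.0%.

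The shift was moderate in size. The median log2 change over the 72 genes was -0.32, or 80.0% of the control intensity, against -0.05, or 96.7%, over all genes tested. The middle 50% of the genes ran from -0.52 to -0.10, and the whole range from -1.12 for Mrps16 to 0.19 for Mrpl16. A fall of at least 2-fold was called for 2 genes, Mrps16 and Mrpl40, and 30 genes lay within 0.2 of no change. The SE of a single gene ran from 0.14 to 0.27 with a median of 0.16, and no change smaller than the -0.42 of Mrpl11 was called with 3 arrays a group. Among the brightest 20% of genes tested were 48 of the 72 members. There, 15 of the 48 members were lower with a median log2 change of -0.31, against 18.8% of all genes of that brightness and a median of -0.06.

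**Figure D1:**
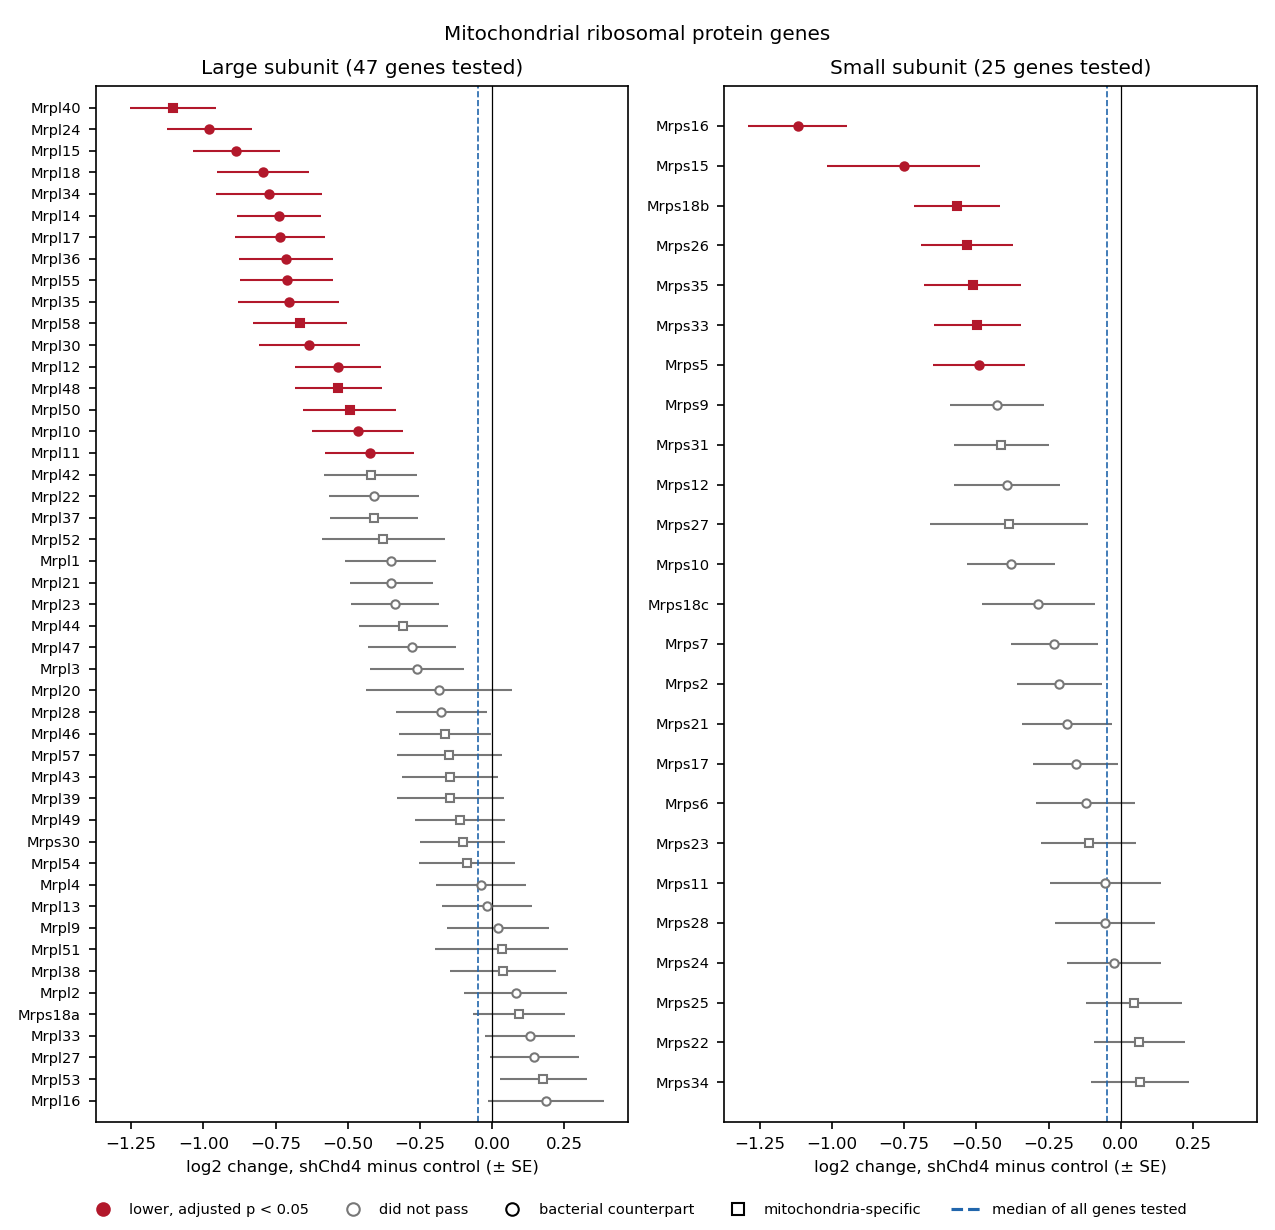
Log2 change (shChd4 minus control, horizontal axis, with SE) of each of the 72 genes tested, in 2 panels for proteins of the large and of the small subunit. Red symbols mark the 24 genes lower at an adjusted p under 0.05, circles mark proteins with a bacterial counterpart and squares mitochondria-specific proteins. Mrps18a and Mrps18b are drawn as squares. Most symbols lie left of the dashed line at the median of all genes tested (-0.05), and no gene to the right of 0 passed.

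The largest falls included proteins of both subunits. Mrps16, the small-subunit counterpart of bacterial S16, stood at 9.27, 9.79 and 9.52 on the shChd4 arrays against 10.55, 10.68 and 10.70 on the control arrays, a log2 change of -1.12 ± 0.17 (limma adjusted p = 0.000497). Mrpl40, a mitochondria-specific protein of the large subunit's central protuberance, stood at 9.64, 9.81 and 9.72 in shChd4 and 10.80, 10.76 and 10.92 in control, a change of -1.11 ± 0.15 (limma adjusted p = 0.000206). Both genes thus kept 46% and 46.5% of the control intensity, with a gap between the groups wider than the spread inside either. Mrpl24, which sits beside the exit of the peptide tunnel, stood at 8.89, 9.02 and 8.87 in shChd4 and 9.86, 10.02 and 9.84 in control, a change of -0.98 ± 0.15 (limma adjusted p = 0.00049). Mrpl15, a core large-subunit protein, averaged 11.06 ± 0.12 in shChd4 and 11.94 ± 0.05 in control (SD, n = 3 each), a change of -0.89 ± 0.15 (limma adjusted p = 0.000959). For both, the gap between the groups was wider than the range of either. Mrpl18, whose bacterial counterpart binds the small ribosomal RNA of the central protuberance, stood at 9.19, 9.51 and 9.25 in shChd4 and 10.24, 10.02 and 10.06 in control, a change of -0.79 ± 0.16 (limma adjusted p = 0.00272).

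Of the next 7 genes with groups that did not overlap, all encode large-subunit proteins. Mrpl34 stood at 10.14, 10.47 and 9.91 in shChd4 against 11.04, 10.73 and 11.08 in control (-0.77 ± 0.18), with shChd4 array 3 the lowest and array 2 nearest to the controls. Mrpl14, at the face that meets the small subunit, stood at 8.96, 8.90 and 8.84 in shChd4 against 9.55, 9.73 and 9.63 in control (-0.74 ± 0.15), and its shChd4 values were nearly equal. Mrpl17 stood at 11.77, 12.05 and 12.11 in shChd4 against 12.71, 12.73 and 12.69 in control (-0.73 ± 0.16). Mrpl36 stood at 10.25, 10.65 and 10.56 in shChd4 against 11.12, 11.20 and 11.28 in control (-0.71 ± 0.16). In both of these the control arrays were closer together than the shChd4 arrays, of which array 1 was the lowest. Mrpl55 stood at 8.05, 8.25 and 7.88 in shChd4 against 8.81, 8.87 and 8.64 in control (-0.71 ± 0.16). Mrpl35 stood at 6.34, 6.06 and 6.16 in shChd4 against 7.16, 6.86 and 6.66 in control (-0.71 ± 0.17), and this dim gene kept its call with a change of -0.33 without background correction. Mrpl58, which frees the nascent chain from stalled mitoribosomes as a peptidyl-tRNA hydrolase, stood at 7.87, 8.22 and 8.02 in shChd4 against 8.70, 8.86 and 8.56 in control (-0.67 ± 0.16). The limma adjusted p of these 7 genes lay between 0.00259 for Mrpl14 and 0.00845 for Mrpl35.

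**Figure D2:**
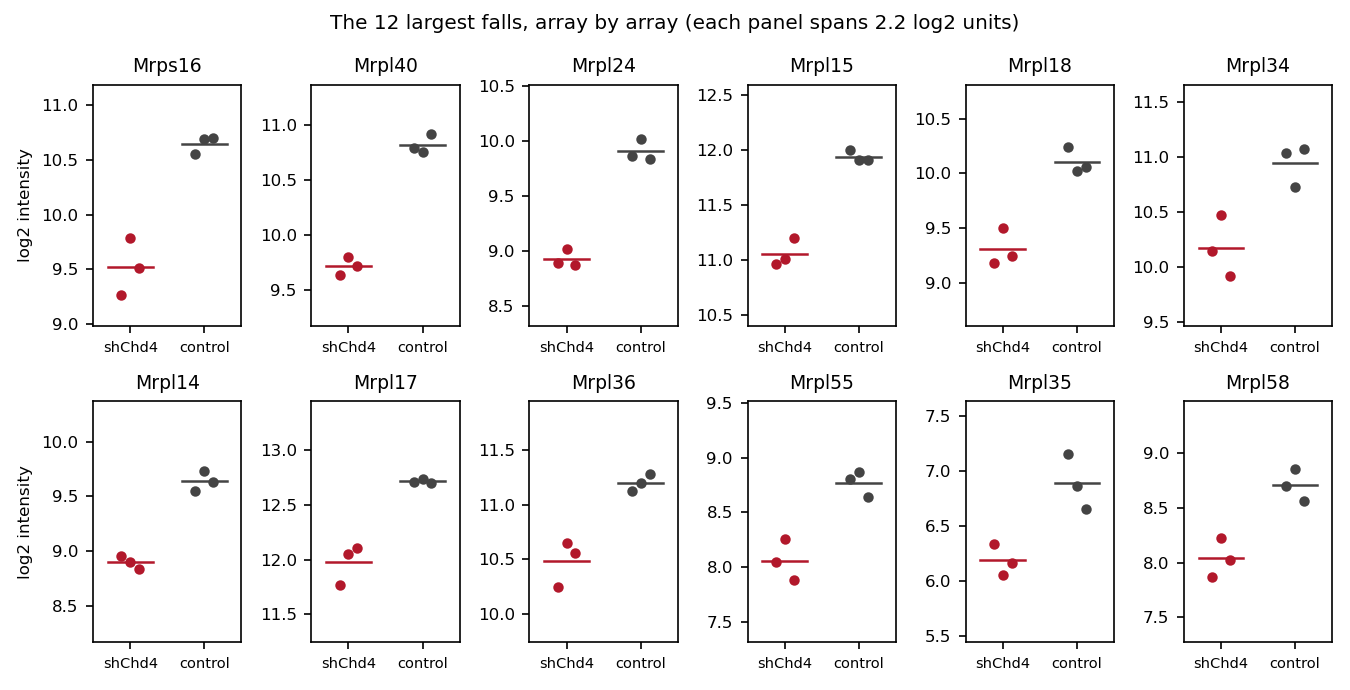
Log2 intensity on each array for the 12 largest called falls whose groups did not overlap, shChd4 left and control right, with each point an array and each bar a group mean. Every panel spans the same number of log2 units, and in all 12 the 3 shChd4 points lie below the 3 control points.

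The other 12 called genes had smaller or less even changes. Mrpl30 had a log2 change of -0.63, Mrpl50 of -0.49, Mrps35 of -0.51, Mrps33 of -0.50, Mrps26 of -0.53 and Mrps5 of -0.49, with limma adjusted p from 0.0149 to 0.0325. Mrps15 was the 1 called gene whose groups overlapped. It stood at 5.74, 5.27 and 4.76 on the shChd4 arrays, where it was detected on 2 of 3, against 6.33, 6.16 and 5.53 on the control arrays (-0.75 ± 0.26, limma adjusted p = 0.0438). It had no call in 9 of the 15 alternative analyses that tested it, among them those without shChd4 array 2 (adjusted p = 0.089) or 3 (0.161) and without control array 1 (0.142) or 2 (0.122). Mrpl30 kept its call without any 1 array. Mrpl50 lost it without shChd4 array 1 (0.108) or 2 (0.0636) or control array 1 (0.0854), 2 (0.078) or 3 (0.0679). Mrps35 lost it without shChd4 array 1 (0.09), 2 (0.0547) or 3 (0.0606) or control array 1 (0.123) or 2 (0.106). Mrps5 lost it without shChd4 array 1 (0.101) or 3 (0.0646) or control array 1 (0.0853), 2 (0.0871) or 3 (0.0524). Mrps33 lost it without shChd4 array 1 (0.0696) or control array 2 (0.0703) or 3 (0.0707), and Mrps26 without shChd4 array 3 (0.0759) or control array 1 (0.0579) or 3 (0.0629). The remaining 5 called genes belong to the groups by role that follow.

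The stalk of the large subunit recruits translation factors to the mitoribosome. Its 3 genes were all lower, where 33.3% of the 72 mitoribosomal genes and 18.2% of all genes tested were lower. Mrpl12, the stalk protein that contacts the factors, stood at 11.03, 11.20 and 11.16 in shChd4 against 11.69, 11.74 and 11.57 in control (-0.53 ± 0.15, limma adjusted p = 0.015). Mrpl10, which anchors it, stood at 10.73, 10.61 and 10.52 in shChd4 against 10.97, 11.01 and 11.27 in control (-0.47 ± 0.16, limma adjusted p = 0.0373). Mrpl11, at the base, stood at 9.81, 9.91 and 9.81 in shChd4 against 10.38, 10.34 and 10.08 in control (-0.42 ± 0.15, limma adjusted p = 0.0483). The shChd4 cells kept 69.1% of the control intensity for Mrpl12, 72.4% for Mrpl10 and 74.5% for Mrpl11, and the groups did not overlap in any of them. Mrpl12 lost its call without control array 2 (0.0618). Mrpl10 lost it without shChd4 array 2 (0.0696) or 3 (0.102) or control array 1 (0.054), 2 (0.0707) or 3 (0.127), and Mrpl11 without shChd4 array 1 (0.104), 2 (0.0613) or 3 (0.104) or control array 1 (0.148) or 2 (0.148).

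The central protuberance is the crest of the large subunit that faces the head of the small subunit. Of the 8 genes listed for it, 4 (50%) were lower, against 33.3% of the 72 mitoribosomal genes and 18.2% of all genes tested. Besides Mrpl40, Mrpl18 and Mrpl55, these included Mrpl48, at 8.40, 8.59 and 8.60 in shChd4 against 9.13, 8.97 and 9.09 in control (-0.53 ± 0.15, limma adjusted p = 0.016). Its call was lost without shChd4 array 1 (0.0531) or control array 1 (0.055). The other 4 genes did not pass and had overlapping groups. Mrpl52 had a log2 change of -0.38 ± 0.21, and its control values of 9.59, 9.30 and 8.79 were far apart, beside 8.99, 8.95 and 8.62 in shChd4. Mrpl46 had a change of -0.16 ± 0.16, Mrpl38 of 0.04 ± 0.18 and Mrpl27 of 0.15 ± 0.15. The 8 genes listed for the protuberance therefore ran from -1.11 to 0.15, nearly the whole range of the mitoribosomal proteins.

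Proteins around the exit of the peptide tunnel, where new chains meet the inner membrane, were represented by 6 tested genes. Mrpl24 was lower, as given above (16.7% of the 6, against 18.2% of all genes tested), and the other 5 did not pass. Mrpl22 stood at 8.70, 8.94 and 8.90 in shChd4 against 9.39, 9.16 and 9.21 in control (-0.41 ± 0.15, limma adjusted p = 0.0574). Mrpl23 stood at 10.79, 10.98 and 10.71 in shChd4 against 11.15, 11.11 and 11.23 in control (-0.34 ± 0.15, limma adjusted p = 0.102). Mrpl44 had a log2 change of -0.31 ± 0.15 and Mrpl47 of -0.28 ± 0.15. All 3 shChd4 arrays lay below all 3 control arrays for each of these 4. Without background correction 4 of these 6 genes were lower. Mrpl39, detected on 1 shChd4 and 2 control arrays, overlapped between the groups with a change of -0.14 ± 0.19. The gene for the membrane anchor of the mitoribosome, Mrpl45, was not tested.

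In the small subunit, Mrps12 lines the decoding centre, where codon and anticodon pair. It stood at 10.77, 11.15 and 10.62 on the shChd4 arrays and 11.21, 11.08 and 11.45 on the control arrays (-0.39 ± 0.18, limma adjusted p = 0.113), with overlapping groups because shChd4 array 2 lay above control array 2. The 3 Mrps18 paralogs descend from a single bacterial protein and occupy different places: Mrps18c the position of bacterial S18 and Mrps18b another site in the small subunit, while Mrps18a is built into the large subunit. Mrps18b stood at 10.97, 10.90 and 11.08 in shChd4 against 11.49, 11.66 and 11.51 in control (-0.57 ± 0.15, limma adjusted p = 0.0116), without overlap, and lost its call without control array 2 (0.0548). Mrps18c stood at 8.70, 8.75 and 8.27 in shChd4 against 9.19, 8.66 and 8.74 in control (-0.29 ± 0.20, limma adjusted p = 0.277). Mrps18a stood at 9.48, 9.74 and 9.84 in shChd4 against 9.62, 9.67 and 9.50 in control (0.09 ± 0.16, limma adjusted p = 0.68). Only the Mrps18b call passed, and the difference between the paralogs was not tested. Mrps30, the other protein that carries a small-subunit name and sits in the large subunit, had a log2 change of -0.10 ± 0.15 with overlapping groups.

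Counted by true position, 17 of 47 large-subunit genes (36.2%) and 7 of 25 small-subunit genes (28%) were lower, against 18.2% of all genes tested. The median log2 changes were -0.34 and -0.29. Large-subunit proteins with a bacterial counterpart had the highest share, 13 of 28 (46.4%) and a median of -0.38, beside 4 of 19 (21.1%) and -0.15 for the mitochondria-specific proteins of that subunit. In the small subunit the shares ran the other way. Proteins with a bacterial counterpart had 3 of 15 (20%) and -0.23 there, and the mitochondria-specific ones 4 of 10 (40%) and -0.40. The shares of 21.1% and 20% were not far from the 18.2% of all genes tested. Mrps18a and Mrps18b were counted as mitochondria-specific, although the Mrps18 family descends from a bacterial protein. With Mrps18b, which was lower, counted by descent, the shares of the small subunit would lie closer together. The smallest counts moved with single arrays. Small-subunit genes that were lower numbered 4 without shChd4 array 1, control array 1 or control array 3, and 3 without shChd4 array 3 or control array 2, and the mitochondria-specific ones among them numbered 2 with any 1 of these 5 arrays left out. Those with a bacterial counterpart numbered 1 without shChd4 array 3 or control array 2. Mitochondria-specific genes of the large subunit numbered 2 without shChd4 array 1 or control array 1, and 7 without background correction, where their median was -0.13. The differences between these classes were not tested.

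At the other end of the order, 12 genes had a log2 change above 0 and none passed. Mrpl16 stood highest at 0.19 ± 0.20, followed by Mrpl53 at 0.18 ± 0.15, Mrpl27 at 0.15 ± 0.15 and Mrpl33 at 0.13 ± 0.16. In each of the 4 the groups overlapped. Among genes just short of the threshold, Mrpl37 (limma adjusted p = 0.0539), Mrps9 (0.0586) and Mrpl42 (0.0591) had log2 changes of -0.41, -0.43 and -0.42, next to Mrpl11 just inside it at -0.42. In all, 14 of the 37 genes with all shChd4 arrays below all control arrays had no call. Over all genes tested 25.3% lay below in this way, and how many of those had no call was not counted.

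The array carries more than 1 probe for many of these genes, which gives a second reading of the same genes on the same arrays. Of the 132 probes, 104 were detected on all 6 arrays and 18 on none. Tested probe by probe, 41 of the 109 detected probes (37.6%) were lower and 0 higher, where 18.5% of all 14610 detected probes were lower. Genes with several probes weigh more in this share, and 7 of the 41 probes belong to Mrpl15. At least 1 lower probe was found for 27 of the 72 genes. The median log2 change was -0.39 over these 109 probes and -0.08 over all. The count of 41 became 26 without control array 2.

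Of 24 genes with at least 2 detected probes, 18 had the same call from each probe and 20 the same sign. Among those 18, no probe was called for 13 and all probes were lower for 5. Mrpl15 had 7 detected probes, all lower, with log2 changes from -1.11 to -0.59. All detected probes were also lower for Mrpl10, Mrpl48, Mrps18b and Mrps33. Probes differed in their call for 6 genes. Mrps31 did not pass by its brightest probe (-0.41) and passed by 2 dimmer probes (-0.65 and -0.63), all of the same sign. Mrpl49 showed -0.11 on its brightest probe, beside -0.70 and -0.80 on 2 probes that passed and -0.51 on a probe that did not. Mrpl38 showed 0.04 on its brightest probe and -0.52 on a dimmer probe that passed, and Mrpl51 0.03 and 0.12 on probes that did not pass and -0.68 on a probe that passed. Mrps26 and Mrps5 were lower by the brightest probe and not by the second, with changes of the same sign (-0.42 and -0.53 on the second). Mrpl9 and Mrps25 had probes of either sign and no call. Which transcripts of these genes each probe reads was not examined.

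**Figure D3:**
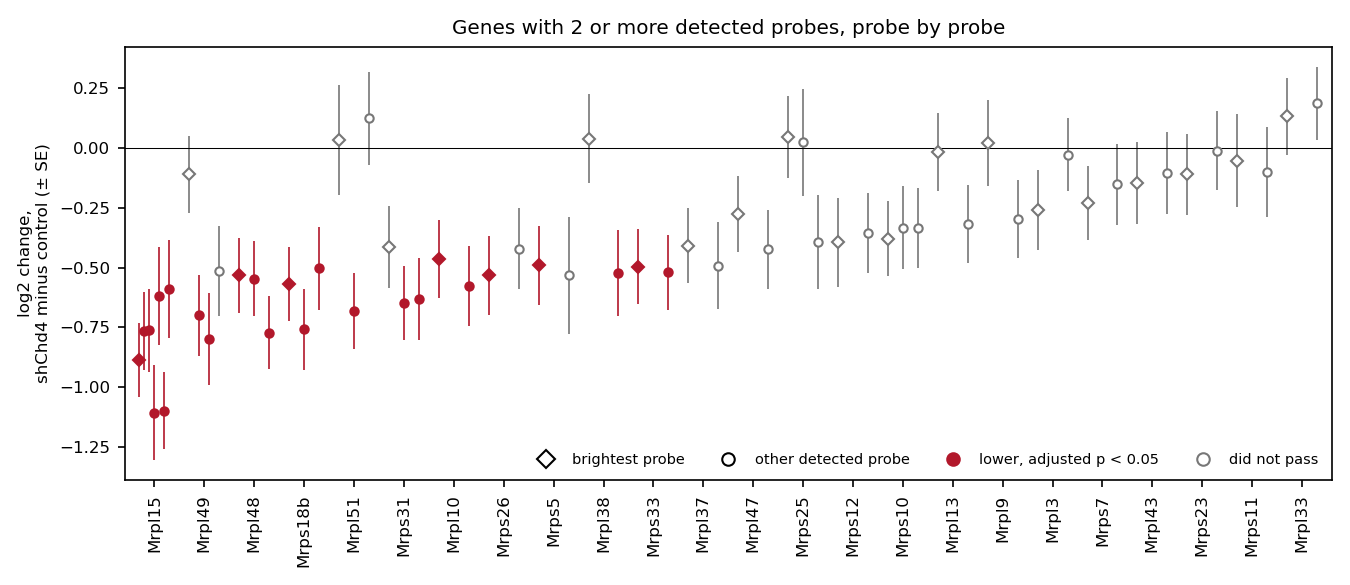
Log2 change (shChd4 minus control, with SE) of every detected probe of the 24 genes with at least 2 detected probes, ordered by their lowest probe. Diamonds mark the brightest probe, circles the others, and red a fall at an adjusted p under 0.05. All 7 Mrpl15 probes lie between -1.11 and -0.59, while the probes of Mrpl49, Mrpl51 and Mrpl38 spread from near 0 to below -0.5.

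The 3 shChd4 arrays were not equal in these genes. The mean log2 intensity of the 72 genes was 9.55, 9.69 and 9.61 on the shChd4 arrays and 9.97, 9.94 and 9.92 on the control arrays. Array 2 was the highest of the shChd4 arrays for 38 of the 72 genes, where it was the highest for 35.7% of all genes, and array 1 the lowest for 40, against 34.0% of all genes. Array 2 also had the highest mean of the ES cell markers and the lowest mean of the fibroblast markers among the shChd4 arrays. Each of the 3 shChd4 means lay below each of the 3 control means. The number of members' probes detected was similar, 107, 108 and 107 on the shChd4 arrays and 110, 109 and 108 on the control arrays, whereas the number over the whole array was 17522, 17070 and 17141 in shChd4 and 15817, 15909 and 16120 in control.

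Other genes of mitochondrial translation were read from lists of known factors. The mitoribosome has subunits with other names, and 3 of the 4 tested were lower (75%, against 18.2% of all genes tested). They were Ptcd3 (-1.12 ± 0.23, limma adjusted p = 0.00296), Dap3 (-0.56 ± 0.15, 0.0121) and Gadd45gip1 (-0.55 ± 0.20, 0.0458). Ptcd3 and Dap3 belong to the small subunit and Gadd45gip1 to the large. Ptcd3 stood at 7.53, 6.89 and 6.65 in shChd4 against 8.39, 8.17 and 7.89 in control, a change close in size to that of Mrps16. Without background correction the Ptcd3 change was -0.70, and with the authors' values -0.74, while the weakest Mrps16 change in any alternative was -0.99. Chchd1, the fourth, had a log2 change of -0.09 ± 0.15 and did not pass. Gadd45gip1 lost its call without any 1 array other than shChd4 array 2, with an adjusted p of 0.166 without shChd4 array 1, 0.102 without shChd4 array 3, and 0.0537, 0.102 and 0.132 without control arrays 1, 2 and 3. It also lost its call without background correction (-0.17, adjusted p = 0.13) and in 5 further settings of the processing, 11 of 16 alternatives in all.

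Of 10 mitochondrial translation factors, 5 (50%, against 18.2% of all genes tested) were lower and 0 higher, with a median log2 change of -0.50, or -0.29 without background correction. The count was 3 without control array 1. Gfm2 and Mrrf, which together split the mitoribosome after termination, had log2 changes of -0.97 ± 0.16 (limma adjusted p = 0.00099) and -0.82 ± 0.20 (0.00895). Mtrf1, of the release factor family, had a change of -0.88 ± 0.17 (0.00183), and the initiation factor Mtif2 of -0.56 ± 0.17 (0.0207). The elongation factor Tufm had a change of -0.18 ± 0.17 and did not pass. The Mtif2 call was lost without shChd4 array 3 (0.0678) or control array 1 (0.0895) and with median scaling (0.0747).

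Of 20 tested genes for mitoribosome assembly and ribosomal RNA modification, 5 were lower and 0 higher, with a median of -0.31, or -0.11 without background correction. Their share, 25%, was not far from the 18.2% of all genes tested, and the count was 3 without shChd4 array 3 or control array 2. Tfb1m, the methyltransferase of the small ribosomal RNA, had a log2 change of -1.01 ± 0.19 (limma adjusted p = 0.00173). The assembly GTPases Gtpbp10, Mtg1 and Mtg2 had changes of -0.85 ± 0.16 (0.00163), -0.75 ± 0.14 (0.00223) and -0.61 ± 0.17 (0.0164). The Mtg2 call was lost without shChd4 array 3 (0.0612) or control array 2 (0.0635), with median scaling (0.0802), with the authors' values (0.0527) and without background correction (0.0561, change -0.21). Of 15 genes for mitochondrial DNA expression and maintenance, 4 (26.7%, likewise not far from 18.2%) were lower and 0 higher, with a median of -0.28. This count was 2 without shChd4 array 3 or control array 1 or 2. Hsd17b10 and Trmt10c, both subunits of mitochondrial RNase P, had changes of -0.73 ± 0.17 (0.00601) and -0.76 ± 0.20 (0.0103). The DNA polymerase Polg had a change of -0.54 ± 0.16 (0.0194) and the single-stranded DNA binding protein Ssbp1 of -0.66 ± 0.19 (0.0196). The Polg call was lost without shChd4 array 2 (0.0581) or 3 (0.0517) or control array 1 (0.0558) or 2 (0.0663) and with median scaling (0.1), and the Ssbp1 call without shChd4 array 1 (0.0747) or 3 (0.0656) or control array 1 (0.0628) or 2 (0.0785).

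The 68 tested oxidative phosphorylation subunits counted 7 lower (10.3%, below the 18.2% of all genes tested) and 0 higher. Their median log2 change was -0.12, or -0.24 with median scaling. The count was 3 without shChd4 array 3 or control array 1 or 2, and 4 without shChd4 array 1 or 2. Atp5g2, of the ATP synthase ring, had a log2 change of -0.67 ± 0.15 (limma adjusted p = 0.00431) and Sdhc, of complex II, of -0.54 ± 0.15 (0.0135). The complex I subunits Ndufb5 and Ndufb10 had changes of -0.76 ± 0.23 (0.0248) and -0.67 ± 0.19 (0.016). The Ndufb5 call was lost without shChd4 array 3 (0.0651) or control array 1 (0.0634) or 2 (0.068) and with no detection filter (0.0833), and that of Ndufb10 without shChd4 array 1 (0.0526) or 3 (0.0608) or control array 1 (0.063) or 2 (0.0548). The mean over all Ndufb10 probes had the other sign, 0.24, and did not pass. The 55 tested genes named as cytosolic ribosomal proteins, of the ribosome outside the organelle, include like-named genes such as Rpl3l, Rps4l and Rpl7l1. They were brighter than the 72 mitoribosomal genes, with a median log2 intensity of 13.9 (highest 14.95) against 10.1 (highest 12.7). How fully changes are read at that brightness was not tested. Of the 55, 1 (1.82%) was lower and 0 higher, with a median log2 change of -0.03 and a range from -0.50 to 0.31. With median scaling the median was -0.22, while that of all genes was -0.01 and that of the 72 mitoribosomal proteins -0.36. That 1 gene was Rpl7l1 (-0.50 ± 0.15, limma adjusted p = 0.0207), whose call was lost without shChd4 array 1 (0.0526) or 3 (0.0598) or control array 1 (0.0629) or 2 (0.0728) and with the mean of all detected probes (0.144).

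**Figure D4:**
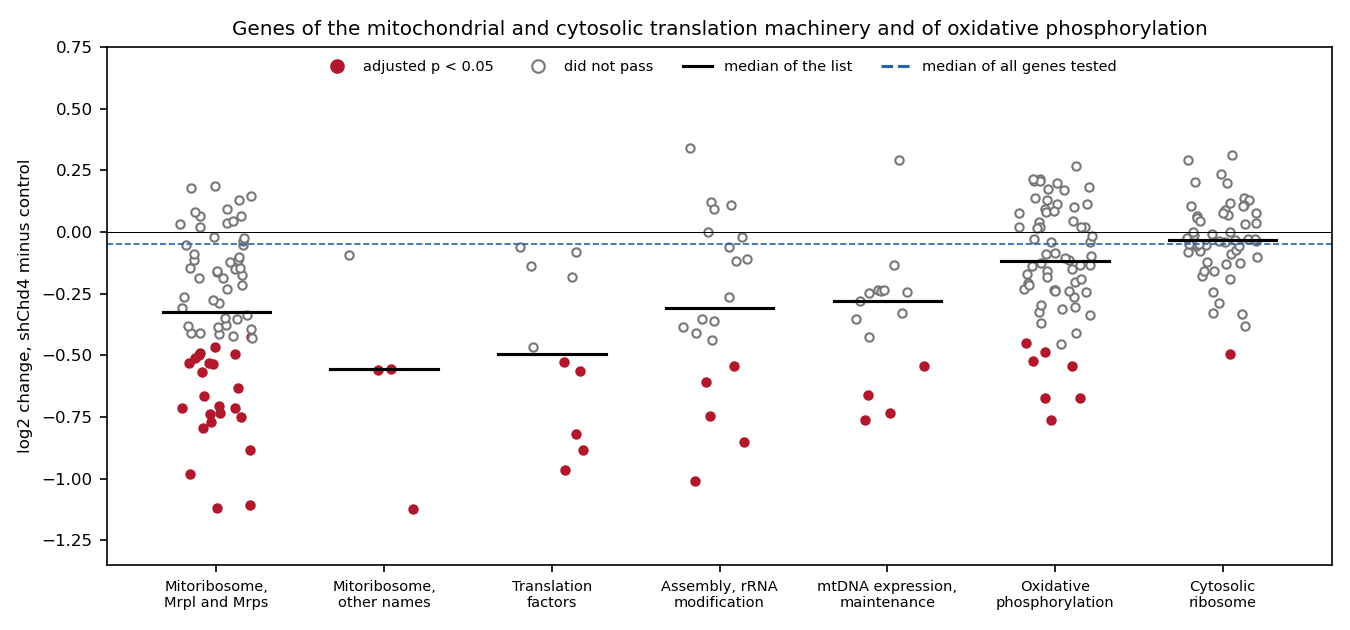
Log2 change (shChd4 minus control) of each tested gene in 7 lists, with red points at an adjusted p under 0.05, a black bar at the median of each list and a dashed line at the median of all genes tested (-0.05). The mitoribosomal lists and the translation factors have medians between -0.56 and -0.31, while the cytosolic ribosomal proteins sit at -0.03 (-0.22 with median scaling). The cytosolic list was brighter, with a median log2 intensity of 13.9 against 10.1 for the Mrpl and Mrps genes.

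Nuclear regulators that are known to drive mitochondrial genes were mixed. Of 7 tested, 3 were lower and 1 higher, where 18.2% of all genes tested were lower and 19.9% higher. The count of lower genes was 1 without shChd4 array 3, without control array 1 or 2, or with no detection filter. Ppargc1a and Yy1 were listed and not tested, as their brightest probes were detected on too few arrays. Gabpa and Gabpb1, the subunits of the ETS-type factor GABP, had log2 changes of -0.61 ± 0.16 (limma adjusted p = 0.0106) and -0.65 ± 0.20 (0.0232), and the coactivator Pprc1 of -0.54 ± 0.20 (0.0493). The nuclear receptor Esrra had a change of 0.50 ± 0.15 (0.0187), and Nrf1 of -0.14 ± 0.16 and no call. The Gabpa call held without any 1 array and was lost with the mean of all detected probes (-0.39, adjusted p = 0.0665). The Gabpb1 call was lost without shChd4 array 2 (0.0798) or 3 (0.0629) or control array 1 (0.0916) or 2 (0.0502), with median scaling (0.0651) and with no detection filter (0.0569), and the Esrra call without shChd4 array 1 (0.0513) or control array 1 (0.0585) or 3 (0.0556). The Pprc1 call was lost without shChd4 array 1 (0.0519) or 3 (0.172) or control array 1 (0.054), 2 (0.131) or 3 (0.123) and with no detection filter (0.1).

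Promoter sequences of 67 of the 76 genes were found in the RefSeq table of build GRCm38.p6, each covering 250 bases before and 50 bases after the start of the gene. Mitochondrial genes of the nucleus are known for promoters with motifs of ETS factors, NRF1 and YY1, so these were searched on both strands as CCGGAAGT (ETS core), GCGCATGC (NRF1 core) and AAGATGGCG (YY1 core). The E-box CACGTG, the GC box GGGCGG, the CCAAT box CCAAT and the TATA box TATAAA were searched as well, and no motif contains another. Shown first are 4 of the 5 largest falls without overlap, as Mrpl15 was not found in the table. Matches of 5 motifs (ETS, NRF1 and YY1 cores, E-box and GC box) are in capitals, and the rest is in lower case. Mrps16 (1 of 2 RefSeq entries, chr14:20393441-20393740, minus strand) and Mrpl40 (chr16:18876588-18876887, minus strand) hold GC boxes, Mrpl18 (chr17:12916042-12916341, minus strand) an ETS core and a GC box, and Mrpl24 (chr3:87919294-87919593, plus strand) none of the 5 motifs.
Mrps16: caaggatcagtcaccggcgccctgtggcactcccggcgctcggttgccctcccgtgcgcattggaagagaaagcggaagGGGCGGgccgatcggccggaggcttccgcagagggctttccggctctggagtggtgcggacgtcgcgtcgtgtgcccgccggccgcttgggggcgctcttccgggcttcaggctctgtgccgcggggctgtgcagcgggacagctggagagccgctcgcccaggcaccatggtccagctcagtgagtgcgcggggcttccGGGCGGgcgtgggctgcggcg
Mrpl40: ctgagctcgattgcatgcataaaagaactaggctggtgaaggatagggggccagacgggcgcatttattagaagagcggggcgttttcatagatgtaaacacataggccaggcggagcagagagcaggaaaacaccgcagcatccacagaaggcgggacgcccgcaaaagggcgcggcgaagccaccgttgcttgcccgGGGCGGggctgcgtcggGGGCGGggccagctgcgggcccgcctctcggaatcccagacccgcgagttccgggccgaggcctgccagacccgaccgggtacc
Mrpl24: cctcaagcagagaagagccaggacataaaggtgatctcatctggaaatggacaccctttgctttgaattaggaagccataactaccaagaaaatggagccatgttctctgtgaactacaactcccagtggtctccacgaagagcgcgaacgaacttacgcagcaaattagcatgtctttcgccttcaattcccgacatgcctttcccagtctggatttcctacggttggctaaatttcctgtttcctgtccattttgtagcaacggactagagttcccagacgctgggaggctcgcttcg
Mrpl18: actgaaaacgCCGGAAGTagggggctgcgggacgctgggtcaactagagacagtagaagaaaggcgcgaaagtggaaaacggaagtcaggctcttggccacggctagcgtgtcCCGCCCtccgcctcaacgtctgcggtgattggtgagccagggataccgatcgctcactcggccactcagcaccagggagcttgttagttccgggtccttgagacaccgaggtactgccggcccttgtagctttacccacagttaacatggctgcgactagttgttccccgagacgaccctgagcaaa

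The Mrps18 paralogs are shown because the family is split between subunits and between calls. Their promoters share no listed motif across all 3 genes. Mrps18b (chr17:35916391-35916690, minus strand), which was lower, holds 2 NRF1 cores and 2 GC boxes. Mrps18c (chr5:100798509-100798808, plus strand) holds an E-box directly followed by an ETS core, and a GC box, and Mrps18a (chr17:46110754-46111053, plus strand) a YY1 core just after the start.
Mrps18a: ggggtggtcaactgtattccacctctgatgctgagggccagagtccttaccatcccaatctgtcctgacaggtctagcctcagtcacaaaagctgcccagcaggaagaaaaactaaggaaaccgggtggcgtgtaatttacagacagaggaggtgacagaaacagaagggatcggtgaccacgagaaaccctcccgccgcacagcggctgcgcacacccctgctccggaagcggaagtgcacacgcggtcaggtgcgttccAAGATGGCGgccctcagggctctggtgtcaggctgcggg
Mrps18b: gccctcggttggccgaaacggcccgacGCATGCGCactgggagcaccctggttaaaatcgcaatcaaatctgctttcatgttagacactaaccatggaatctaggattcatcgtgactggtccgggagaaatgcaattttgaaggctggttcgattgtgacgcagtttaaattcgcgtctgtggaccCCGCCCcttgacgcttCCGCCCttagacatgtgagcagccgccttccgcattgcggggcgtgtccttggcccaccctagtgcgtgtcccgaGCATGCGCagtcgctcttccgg
Mrps18c: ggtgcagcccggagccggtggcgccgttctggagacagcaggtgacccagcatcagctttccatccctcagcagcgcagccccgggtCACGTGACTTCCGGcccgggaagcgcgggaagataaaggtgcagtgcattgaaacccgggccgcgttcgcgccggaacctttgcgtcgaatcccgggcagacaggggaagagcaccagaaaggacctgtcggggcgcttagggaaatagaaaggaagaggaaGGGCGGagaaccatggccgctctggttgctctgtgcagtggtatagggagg

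Over the 67 promoters, an ETS core was found in 16.4%, an NRF1 core in 11.9% and a YY1 core in 11.9%. The same shares were 8.39%, 5.6% and 3.42% over the promoters of 7960 genes tested, and 3.89%, 2.71% and 1.4% over all 32851 promoters in the table. At least 1 of the 3 cores was present in 25 of the 67 (37.3%), against 16.2% of genes tested. Within the family the share was split by call as 7 of 22 promoters (31.8%) of genes that were lower and 17 of 42 (40.5%) of genes without a call. A GC box was present in 49.3% of the family against 65.3% of genes tested, and an E-box in 7.46% against 10.4%. A CCAAT box was present in 37.3% against 39%, and a TATA box in 5.97% against 7.73%. These are matches of letters in a window and say nothing of binding.

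Some mitoribosomal genes share a start region with a gene on the opposite strand, and how common this is among all genes was not counted. With at most 500 bases between the starts, 23 members formed 22 such head-to-head pairs, and both genes were tested in 15. Both were lower in 3 pairs, the member alone in 2, the neighbour alone in 3, and neither in 7, with 0 neighbours higher. Members were thus lower in 5 of the 15 pairs and neighbours in 6, where 18.2% of all genes tested were lower and 19.9% higher. Whether 3 shared falls exceed what separate falls would give was not tested. Mrpl40 and Hira, a histone chaperone gene, start 113 bases apart, and Hira had a log2 change of -0.80 (limma adjusted p = 0.0222). Mrpl30 and Mitd1 start 66 bases apart, and Mitd1 had a change of -0.77 (0.0423). Mrps5 and Zfp661 start 332 bases apart, and Zfp661 had a change of -0.81 (0.0423). In 2 other pairs the changes were unequal in size, with Mrpl14 lower beside Tmem63b at 0.06 and Mrpl18 lower beside Tcp1, a chaperonin subunit, at -0.26, neither of which passed. The neighbours that fell beside a member without a call were Cyb5rl (-0.94, next to Mrpl37), Ndufb5 (-0.76, next to Mrpl47) and Helq (-0.50, next to Mrps18c). Calls of single neighbours depended on the arrays used and on the processing. Hira did not pass without shChd4 array 1 (0.061) or control array 2 (0.0788) or with no detection filter (0.0795). Mitd1 did not pass without shChd4 array 3 (0.101) or control array 1 (0.097), 2 (0.0749) or 3 (0.0831) or with no detection filter (0.139). Zfp661 did not pass without shChd4 array 1 (0.0775) or 3 (0.15) or control array 1 (0.103) or 2 (0.143), without background correction (0.0817), with median scaling (0.0632), the authors' values (0.0735) or no detection filter (0.143). Helq did not pass without shChd4 array 1 (0.0965) or 2 (0.0747) or control array 2 (0.117) or 3 (0.0849), with median scaling (0.129) or with a trended and robust variance (0.0529). Cyb5rl passed in all 16 alternatives.

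**Figure D5:**
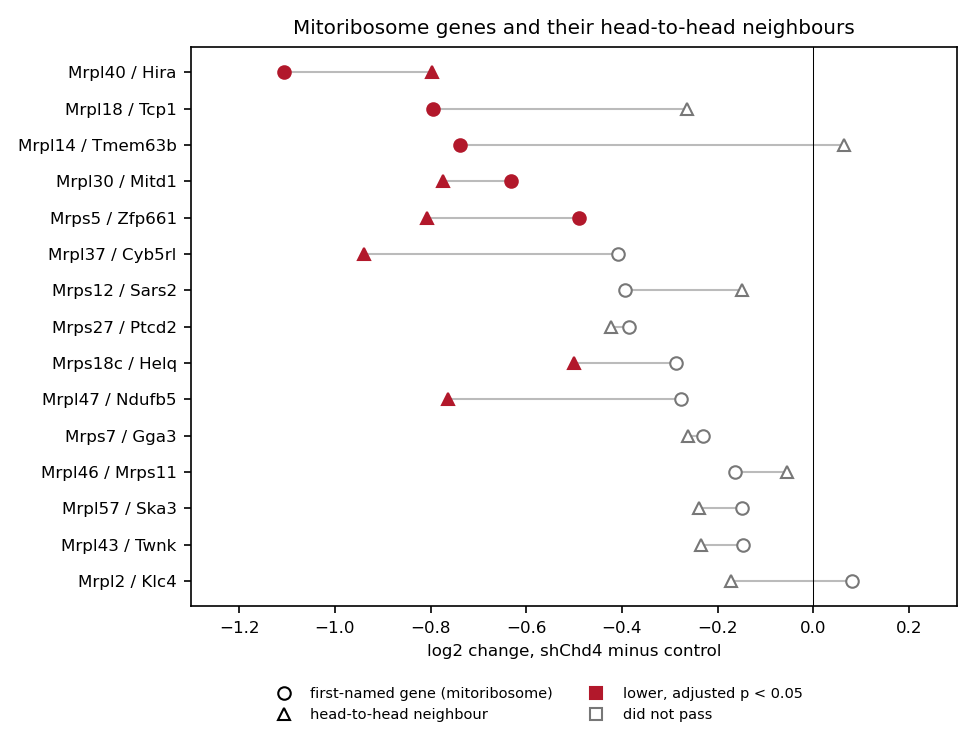
Log2 change (shChd4 minus control) of the 15 head-to-head pairs with both genes tested, with circles for the first-named mitoribosomal gene, triangles for its neighbour and red for a fall at an adjusted p under 0.05. Both symbols are red for Mrpl40 and Hira, Mrpl30 and Mitd1, and Mrps5 and Zfp661, and a single symbol is red in 5 further pairs.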

How the data were processed

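Linear scanner intensity values were deposited for each probe and array, with a detection p-value beside each per the file headers. GenomeStudio is named in the submitters' processing notes without a version. A second deposited set of intensity values by the authors, quantile-normalised to judge by its values, was an alternative. The neqc function of limma 3.58.1 (R 4.3.3) corrected the background by normexp with the detection p-values, added 16, quantile-normalised the arrays and took log2. Probes were named from the platform annotation, with symbols updated by Entrez identifier in a RefSeq table. A gene was read by its brightest probe and tested where that probe was detected (p under 0.05) on at least 3 arrays. The test was limma's lmFit and eBayes with group as its term, adjusted by Benjamini-Hochberg over 9808 genes. The bound for Col1a1 sets its shChd4 mean against the lowest signal among detected probes on the control arrays, or its own where higher. The steps were tested on simulated data. Arrays give no read depth, and their number limits the precision. Alternatives were other background, scaling, filter, probe and variance settings, the authors' values, and each array left out.

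The members and lists were chosen with earlier results of these data known. Genes named are the 12 largest falls without overlap, all genes of the roles described, genes whose probes disagree, undetected genes, up to 4 genes per other list with the smallest p, and 4 markers. The other called members, the highest and near-threshold members, Tufm, Nrf1 and the head-to-head neighbours were named after their values were seen.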

Additional observations from a re-analysis of the deposited data

How the results depend on the processing

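Over 16 alternative analyses the number of mitoribosomal genes lower in shChd4 ran from 16 to 34 around the reported 24, and 0 were higher in each. Leaving out single arrays gave 16 (without control array 2) to 22 genes, with medians from -0.37 to -0.28, and the other settings gave 26 to 34 genes, with medians from -0.36 to -0.25. Of the 24 genes, 13 were lower in every alternative, and the direction of no named mitoribosomal gene with a call in any setting turned. The count of probes ran from 26 to 36 without single arrays, and 0 were higher. Not called at the reported settings, Mrpl22 was lower in 8 alternatives, Mrps31 in 6 and Mrpl23 in 4. Mrps15 also lost its call without background correction (adjusted p = 0.104), with an offset of 50 (0.0515), median scaling (0.0846), the authors' values (0.094) or no detection filter (0.14). Among the 24 called genes, the size of the fall moved by over 1.5 times for 2, Mrpl35 (to -0.33) and Mrps15 (to -0.24), each without the background step. The causes were not tested.

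For the other lists, the same alternatives, chosen after seeing the data, gave 2 to 3 lower among the otherwise named subunits, 3 to 5 among translation factors, 3 to 9 among assembly genes, with 0 to 1 higher, 2 to 5 for mitochondrial DNA expression, 1 to 3 among nuclear regulators, 3 to 8 among oxidative phosphorylation subunits, and 0 to 4 lower with 0 to 3 higher among cytosolic ribosomal proteins. The marker lists gave 6 to 10 lower ES cell markers with medians from -0.92 to -0.45 and 12 to 17 higher fibroblast markers with medians from 1.37 to 2.72. Medians ran from -0.55 to -0.29 for translation factors, from -0.36 to -0.11 for assembly genes, from -0.39 to -0.22 for mitochondrial DNA expression, from -0.67 to -0.36 for the otherwise named subunits, from -0.34 to -0.12 for nuclear regulators, from -0.24 to -0.07 for oxidative phosphorylation subunits and from -0.22 to -0.01 for cytosolic ribosomal proteins. Of 33 called genes outside the family tested this way, the size moved by over 1.5 times for 21, among them 18 without background correction. The fall of Ndufb10 turned to 0.24 (no call) with the mean of all detected probes. No paired analysis was possible because the samples of the groups share no replicate numbers in the labels. The signal over background limits genes such as Mrps15, Mrps27, Mrpl39, Mrpl51 and Mrpl57, which lay close to the background.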
